A study of Rattus norvegicus with 8 samples.

Results

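The 10 genes described here code for proteins that decide whether a cell leaves G1, the growth phase before DNA replication. They are the D-type cyclins Ccnd1, Ccnd2 and Ccnd3, the kinases Cdk4 and Cdk6, the kinase inhibitors Cdkn1b (p27), Cdkn1c (p57) and Cdkn2b (p15), the retinoblastoma gene Rb1, and Myc. A member was every probe whose gene name in the array files is one of these 10 symbols, which gave 12 of the 30328 probes used. All 10 genes were among the 16908 tested. RNA came from N27 cells, an immortalised rat line from embryonic mesencephalon that the labels call dopamine producing, and was hybridised to 8 single-colour arrays, 2 a group. The control group is labelled as control with no vehicle named. The Mn group received manganese at 150 µM for 48 h, and the MPP+ group received MPP+, a known inhibitor of respiratory complex I, at 250 µM for 48 h. The fourth group is labelled 3-NPA, read here as 3-nitropropionic acid, which is known to block succinate dehydrogenase (respiratory complex II), and the labels give it no dose and no time. Every group is the same transformed line, and the labels do not say that the arrays of a group came from separate cultures, so the p-values rest on a spread between arrays that may be technical only.

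D-type cyclins bind CDK4 or CDK6, and these kinases phosphorylate the retinoblastoma protein, which then releases E2F factors that switch on genes for DNA replication. The INK4 proteins, p15 among them, hold CDK4 and CDK6 apart from their cyclins, while p27 and p57 bind whole cyclin and kinase complexes. Myc is a transcription factor that promotes growth and ribosome production, and its partner Max also pairs with the Mxd and Mnt proteins, which oppose it.

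The probes are shown first because each is the whole of what was measured for its gene, and because both inhibitors with a second probe gave results that depend on which probe is read. Positions are those of the array files on rn4, 5′ to 3′, each probe is 60 bases long, and no rn4 gene annotation was used here, so no exon is named. The Ccnd1 probe lies at chr1:205361630-205361689 on the minus strand. The Ccnd2 probe is placed at chr4:163535032-163541856 on the minus strand, so its 60 bases are spread over 6825 bases of the genome. The Cdk4 probe lies at chr7:67017293-67017352 on the plus strand. The brighter of the Cdkn1c probes lies at chr1:203835291-203835350 and the dimmer at chr1:203836064-203836123, both on the minus strand. The brighter Cdkn2b probe lies at chr5:108940426-108940485 and the dimmer at chr5:108941425-108941484, both on the minus strand. For the brighter probes of both inhibitors, for Cdk6 (chr4:27362858-27362917, minus strand) and for Ccnd3, which has no position in the files, only the first 30 bases are printed.
Ccnd1: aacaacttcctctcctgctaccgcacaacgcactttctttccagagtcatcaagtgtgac
Ccnd2: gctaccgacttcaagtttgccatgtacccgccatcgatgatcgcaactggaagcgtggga
Cdk4: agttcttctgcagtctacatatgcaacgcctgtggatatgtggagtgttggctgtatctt
Cdkn1c, dimmer probe: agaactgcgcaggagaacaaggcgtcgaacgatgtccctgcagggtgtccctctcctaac
Cdkn2b, dimmer probe: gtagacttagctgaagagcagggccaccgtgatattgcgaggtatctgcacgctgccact
Cdkn1c, brighter probe: gtgtcctccacattattagattgctcttaa
Cdkn2b, brighter probe: ctgaaatacagcttctcatgaaactatgac
Cdk6: aattgtgctgccatttcgttttctaacctt
Ccnd3: tgctgatggtcattttaatttattgctttg

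The remaining probes were those of Cdkn1b at chr4:171846350-171846409 (plus strand), Rb1 at chr15:53829645-53829704 (minus strand) and Myc at chr7:98957687-98957746 (plus strand). No pair of the 12 probes shared a run of more than 8 bases, and their GC content ran from 35% to 58.3%. The Rb1 probe holds the 13-base run gagccttcggttt at its start and again near its end.

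Each array held 62976 spots, and from 32711 to 34060 of them were well above background on the control arrays, against 37964 to 41354 on the treated arrays. All 8 arrays lay on 1 slide in 1 scan. The 3-NPA arrays were extracted in a later run than the other 6, so that run and the 3-NPA group cannot be told apart, nor can a group and its place on the slide. A level is given as log2 of the processed signal relative to the 75th percentile of its array, which is set to 0, and levels of different genes are not compared, since each probe has its own response. With each array scaled to its median instead, the median change of all genes against control went from -0.02 to 0.06 with Mn, from 0.02 to 0.13 with MPP+ and from 0.05 to -0.09 with 3-NPA. Calls across all genes then split differently too, with 763 higher and 328 lower for Mn (761 and 534 with the 75th percentile), 1557 and 621 for MPP+ (1263 and 1094) and 2599 and 3506 for 3-NPA (3767 and 2707). Quantile normalization moved the split for Mn to 1125 higher and 416 lower and for MPP+ to 1801 and 990, and normexp background correction moved that for MPP+ to 1087 and 1647. Of the dopaminergic markers, Th, Slc18a2 and Nr4a2 were well above background on all 8 arrays, whereas Slc6a3, Foxa2 and Lmx1a were so on 0. Each array is the RNA of a whole culture, in which fewer cells of a type and less RNA per cell cannot be told apart.

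Against control, a gene was called at an adjusted p below 0.05, from limma fitted to all genes with Benjamini-Hochberg adjustment. Ccnd2 was well above background on the 3-NPA arrays only and so entered the test through the group where it is high, so the counts here are over the 9 other genes. Mn raised 1 of the 9, Cdkn2b, and lowered 1, Cdkn1c, where 7.66% of all genes were called, 4.5% higher and 3.16% lower. MPP+ raised 0 and lowered 2, Cdk6 and Cdkn1c, where 13.9% of all genes were called, 7.47% higher and 6.47% lower. With 3-NPA Rb1 rose and Ccnd3, Cdk4 and Cdk6 fell, which is 4 of 9 where 38.3% of all genes were called, 22.3% higher and 16% lower. These comparisons share the same control arrays. The unadjusted limma p was below 0.05 for 4 of the 9 genes with Mn, 4 with MPP+ and 5 with 3-NPA.

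**Figure D1:**
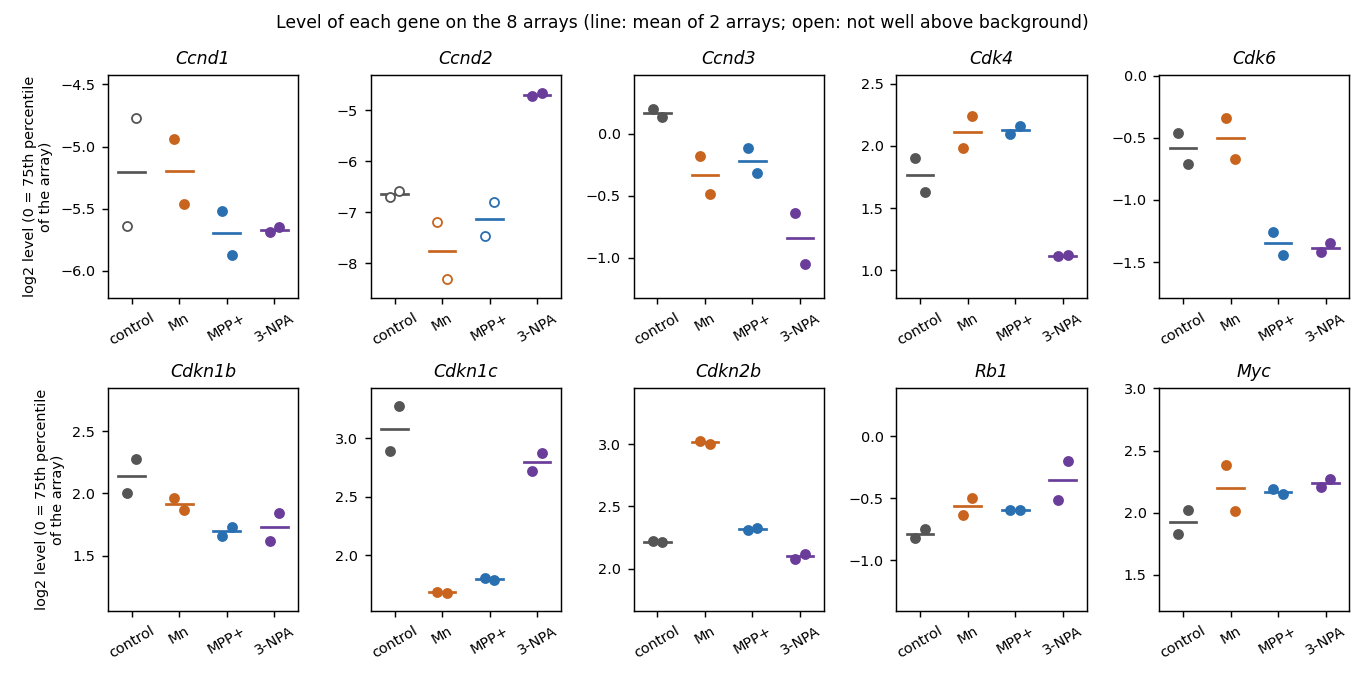
Log2 level of each gene on the 8 arrays (vertical axis, 0 is the 75th percentile of the array) by group, with 1 point an array, a line at the mean of 2 arrays, and open points where the probe was not well above background. Cdkn1c is low on all Mn and MPP+ arrays, Cdkn2b is high on both Mn arrays, and Ccnd2 is above background only on the 3-NPA arrays.

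Among the D-type cyclins, Ccnd3 was the brightly measured one and it fell with 3-NPA. Its log2 level was 0.20 and 0.13 in control, -0.18 and -0.49 with Mn, -0.12 and -0.32 with MPP+, and -0.64 and -1.05 with 3-NPA. Both control arrays lay above all 6 treated arrays, and both 3-NPA arrays lay below the rest. The fall with 3-NPA was -1.01 ± 0.18 (log2, SE), or 2.02-fold, with an adjusted p of 0.00687 in limma, and it kept its call in each alternative that was run. The changes with Mn (-0.50 ± 0.18, limma adjusted p = 0.143) and MPP+ (-0.39 ± 0.18, limma adjusted p = 0.191) did not pass the test.

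Ccnd2, which codes for cyclin D2, was detected well above background on the 3-NPA arrays only. Its log2 level was -6.70 and -6.58 in control, -7.20 and -8.32 with Mn, -7.46 and -6.80 with MPP+, and -4.72 and -4.66 with 3-NPA. The 3-NPA arrays were the highest and did not overlap the other 6, on which the probe was not well above background. In processed signal it read 40.8 and 45.8 on the 3-NPA arrays, against 10.7 to 11.2 in control. Since it entered the fit through the 3-NPA group alone, its differences are given as a description with no test. The mean on the 3-NPA arrays was 1.94 above control on the log2 scale, or 0.48 with normexp background correction. No fold over control is given, because the lowest signals well above background on the control arrays were not, on average, below the 3-NPA level. Relative to 3-NPA the mean was -3.07 with Mn and -2.43 with MPP+ on the log2 scale. Over the alternatives the smallest of these differences were -0.64 and -0.72, so no fold is given for them either.

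Ccnd1, which codes for cyclin D1, was close to background throughout. Its log2 level was -5.64 and -4.77 in control, -4.94 and -5.46 with Mn, -5.52 and -5.87 with MPP+, and -5.69 and -5.65 with 3-NPA. The control arrays were the farthest apart and neither was well above background, with 0 of 2 spots so marked on the first and 1 of 2 on the second. No comparison of Ccnd1 passed the test, and the 95% interval of the Mn change ran from -0.78 to 0.78.

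The kinases moved differently. Cdk6 fell with MPP+ and with 3-NPA, while Cdk4 fell with 3-NPA and had a level above control with Mn and MPP+ that did not pass the test.

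For Cdk6 the log2 level was -0.46 and -0.71 in control, -0.34 and -0.67 with Mn, -1.26 and -1.44 with MPP+, and -1.42 and -1.35 with 3-NPA. The control and Mn arrays overlapped and lay above all MPP+ and 3-NPA arrays. Cdk6 fell with MPP+ by 1.70-fold (-0.77 ± 0.15, limma adjusted p = 0.0272) and with 3-NPA by 1.74-fold (-0.80 ± 0.15, limma adjusted p = 0.00987). The MPP+ call was lost in limma without control replicate 1 (adjusted p = 0.0849), without MPP+ replicate 1 (0.0966) or 2 (0.159), without either 3-NPA array (0.0612 each), on the 4 arrays of the pair (0.0628) and on the 6 arrays of the first extraction run (0.0612). The 3-NPA call was lost without 3-NPA replicate 1 (limma adjusted p = 0.058). Between MPP+ and 3-NPA the difference was 0.03, with a 95% interval from -0.34 to 0.41.

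For Cdk4 the log2 level was 1.90 and 1.63 in control, 1.98 and 2.24 with Mn, 2.10 and 2.16 with MPP+, and 1.11 and 1.12 with 3-NPA. Both 3-NPA arrays were the lowest, and the Mn and MPP+ arrays all lay above both control arrays. Cdk4 fell with 3-NPA by 1.57-fold (-0.65 ± 0.13, limma adjusted p = 0.0122), a call lost without 3-NPA replicate 1 (limma adjusted p = 0.0635) or 2 (0.0617). The differences from control were 0.35 ± 0.13 with Mn (limma adjusted p = 0.171) and 0.36 ± 0.13 with MPP+ (limma adjusted p = 0.126). The gap between the other toxins and 3-NPA was wider: Mn was 1.00 ± 0.13 above 3-NPA (limma adjusted p = 0.00368) and MPP+ 1.01 ± 0.13 above it (limma adjusted p = 0.00348). Between Mn and MPP+ the difference was -0.01, with a 95% interval from -0.34 to 0.31.

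**Figure D2:**
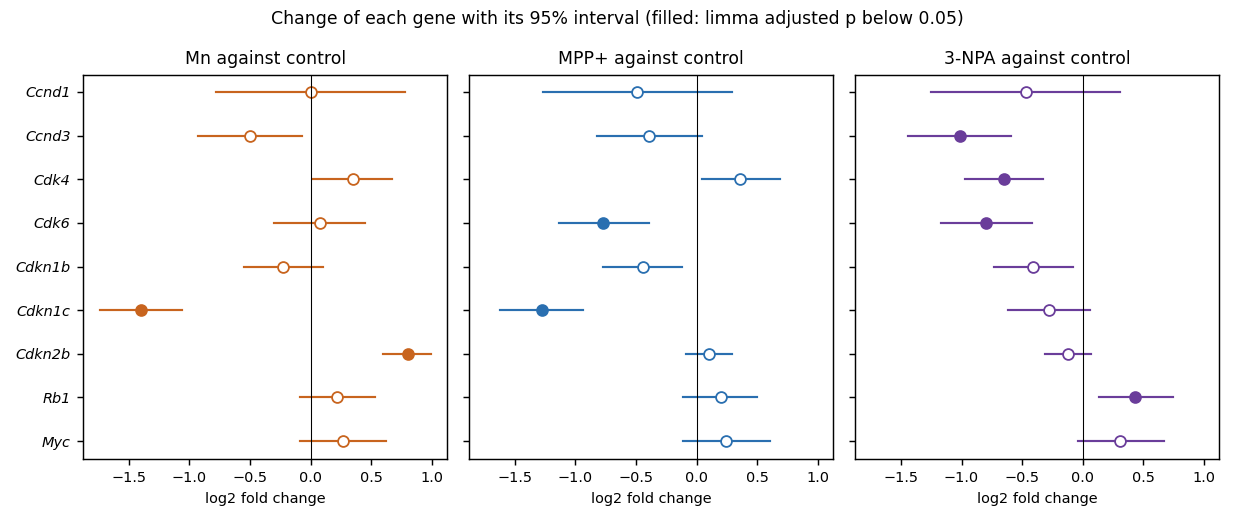
Log2 fold change of each gene against control (horizontal axis) for Mn, MPP+ and 3-NPA, without Ccnd2, with its 95% interval from limma and filled points where the adjusted p was below 0.05. Cdkn1c falls with Mn and MPP+, Cdkn2b rises with Mn, and with 3-NPA Ccnd3, Cdk4 and Cdk6 fall while Rb1 rises.

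Of the inhibitors, Cdkn1c fell with Mn and with MPP+, while its change with 3-NPA did not pass the test. Its brighter probe read 2.89 and 3.27 in control, 1.69 and 1.68 with Mn, 1.81 and 1.79 with MPP+, and 2.72 and 2.87 with 3-NPA. All Mn and MPP+ arrays lay below all control and 3-NPA arrays, and both 3-NPA arrays lay below both control arrays. The fall was 2.63-fold with Mn (-1.40 ± 0.14, limma adjusted p = 0.00518) and 2.42-fold with MPP+ (-1.28 ± 0.14, limma adjusted p = 0.0046). With 3-NPA the change was -0.28 ± 0.14, with a limma adjusted p of 0.163. Over the alternatives it ran from -0.47, without control replicate 1, to -0.09. The level with 3-NPA was above that with Mn by 1.12 ± 0.14 (limma adjusted p = 0.00298) and above that with MPP+ by 1.00 ± 0.14 (limma adjusted p = 0.00435). Mn and MPP+ differed by -0.12, with a 95% interval from -0.46 to 0.22.

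The dimmer Cdkn1c probe, whose 60 bases are printed above, read 1.90 and 1.87 in control, 0.40 and 1.21 with Mn, 0.53 and 1.92 with MPP+, and 1.51 and 1.55 with 3-NPA. Here the MPP+ arrays straddled the control arrays. On the second MPP+ array its duplicate spots had processed signals of 1610 and 12600, which is 2.97 apart on the log2 scale, while on the other 7 arrays its duplicates lay within 0.56 of each other. As the mean of spots, its change was -1.08 ± 0.47 with Mn (limma adjusted p over probes 0.217) and -0.66 ± 0.47 with MPP+ (0.388), and against 3-NPA it was -0.72 ± 0.47 with Mn (0.308) and -0.30 ± 0.47 with MPP+ (0.663). With the lowest spot of each probe on each array, an alternative chosen after these spots were seen, its change was -1.16 ± 0.18 with Mn (limma adjusted p over probes 0.018) and -1.39 ± 0.18 with MPP+ (0.00768). Where a gene was the mean of its probes, the MPP+ change of Cdkn1c was -0.97, with a limma adjusted p of 0.053, and the call was lost.

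Cdkn2b rose with Mn. Its brighter probe, spotted 10 times on each array, read 2.22 and 2.21 in control, 3.03 and 3.00 with Mn, 2.31 and 2.33 with MPP+, and 2.08 and 2.12 with 3-NPA. The Mn arrays stood above the other 6, the MPP+ arrays lay just above control and the 3-NPA arrays just below it. The rise with Mn was 1.74-fold (0.80 ± 0.08, limma adjusted p = 0.00514). Mn also exceeded MPP+ by 0.70 ± 0.08 (limma adjusted p = 0.00737) and 3-NPA by 0.92 ± 0.08 (limma adjusted p = 0.000937). The changes with MPP+ (0.10 ± 0.08, limma adjusted p = 0.436) and 3-NPA (-0.12 ± 0.08, limma adjusted p = 0.28) did not pass. The excess of Mn over MPP+ was not called without MPP+ replicate 1 (limma adjusted p = 0.0738) or 2 (0.0787), nor on the 4 arrays of the pair (0.0565).

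The dimmer Cdkn2b probe read -2.39 and -2.13 in control, -1.44 and -1.06 with Mn, -2.0 and -1.63 with MPP+, and -2.18 and -1.98 with 3-NPA. The Mn arrays were again the highest and did not overlap the others. Its rise with Mn was 1.01 ± 0.19 (limma adjusted p over probes 0.0369). On this probe Mn exceeded 3-NPA by 0.83 ± 0.19 (limma adjusted p over probes 0.026), and its difference from MPP+, 0.57 ± 0.19, was not called (0.129). The Mn calls of both Cdkn1c and Cdkn2b were lost when only the 4 arrays of control and Mn were fitted, with limma adjusted p of 0.0665 and 0.093, where 6 genes in all were called.

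**Figure D3:**
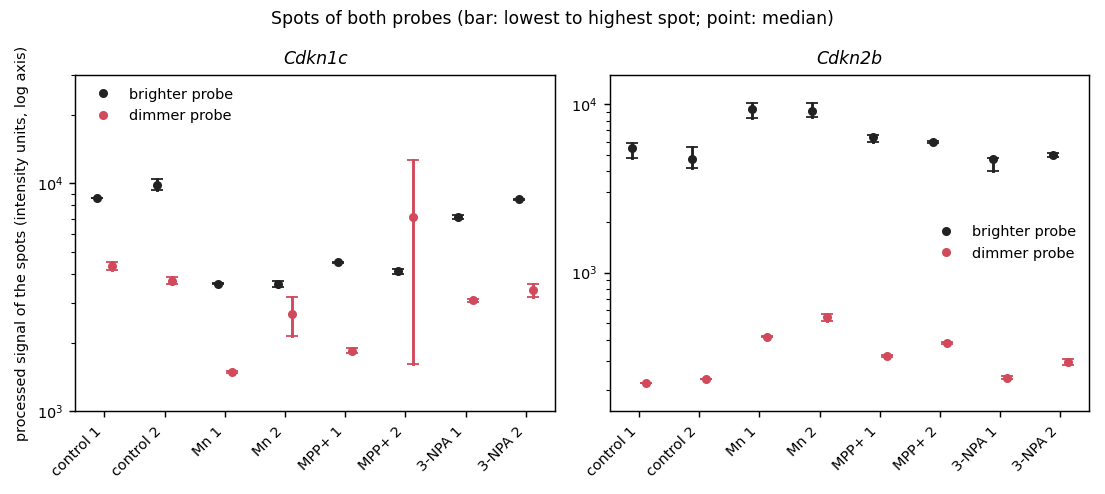
Processed signal of the spots (intensity units, log axis) of both probes of Cdkn1c and of Cdkn2b on each array, with bars from the lowest to the highest spot and a point at the median. The duplicate spots of the dimmer Cdkn1c probe on the second MPP+ array read 1610 and 12600, and both Cdkn2b probes are highest on the Mn arrays.

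Cdkn1b was measured by 10 spots and passed the test with none of the toxins. Its log2 level was 2.00 and 2.28 in control, 1.96 and 1.87 with Mn, 1.66 and 1.73 with MPP+, and 1.62 and 1.84 with 3-NPA. Both control arrays lay above all 6 treated arrays. The change was -0.23 ± 0.13 with Mn (limma adjusted p = 0.339), -0.44 ± 0.13 with MPP+ (limma adjusted p = 0.0793) and -0.41 ± 0.13 with 3-NPA (limma adjusted p = 0.0548). The alternatives went both ways. With the lowest spot of each probe the changes were smaller, -0.20 ± 0.14 with MPP+ (limma adjusted p over probes 0.396) and -0.24 ± 0.14 with 3-NPA (0.234). With trend and robust variances the limma adjusted p was 0.0383 for MPP+ and 0.0261 for 3-NPA. The 3-NPA change was also called with a filter on all 8 arrays (limma adjusted p = 0.0365), scaled by the median (-0.55, limma adjusted p = 0.0459) and without control replicate 1 (-0.55, limma adjusted p = 0.0341).

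Rb1, whose protein restrains E2F, rose with 3-NPA by a small amount. Its log2 level was -0.82 and -0.75 in control, -0.63 and -0.50 with Mn, -0.59 and -0.59 with MPP+, and -0.51 and -0.20 with 3-NPA. Both control arrays lay below all treated arrays, and the 3-NPA arrays overlapped those of Mn. The 3-NPA rise was 1.35-fold (0.43 ± 0.13, limma adjusted p = 0.0387). Scaled by the median it was 0.29, with a limma adjusted p of 0.174. It was not called on the 4 arrays of the pair (limma adjusted p = 0.0995), nor without control replicate 1 (0.116) or 2 (0.0784), either MPP+ array (0.0753 each) or 3-NPA replicate 2 (0.28, limma adjusted p = 0.176). With Mn (0.22 ± 0.13, limma adjusted p = 0.326) and MPP+ (0.20 ± 0.13, limma adjusted p = 0.331) it did not pass.

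Myc, also measured by 10 spots, passed the test in none of the 6 comparisons. Its log2 level was 1.83 and 2.02 in control, 2.38 and 2.01 with Mn, 2.19 and 2.15 with MPP+, and 2.21 and 2.27 with 3-NPA. The MPP+ and 3-NPA arrays lay above both control arrays, while the second Mn array lay just under the higher control array. The change was 0.27 ± 0.14 with Mn (95% interval -0.09 to 0.62, limma adjusted p = 0.304), 0.24 ± 0.14 with MPP+ (-0.11 to 0.60, limma adjusted p = 0.303) and 0.31 ± 0.14 with 3-NPA (-0.04 to 0.67, limma adjusted p = 0.138).

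Counting genes whose arrays did not overlap between the groups, 6 of the 9 other than Ccnd2 were so separated from control with Mn, 3 above and 3 below, against 50.5% of all genes (25.4% above and 25.1% below). With MPP+ it was 8, 4 above and 4 below, against 63.5% (34% and 29.4%), and with 3-NPA all 9, 2 above and 7 below, against 71.9% (39.9% and 31.9%). Those below with 3-NPA include Ccnd1, which lies near background. It read -5.69 and -5.65 with 3-NPA against -5.64 and -4.77 in control, where neither array was well above background. The median log2 change of these 9 genes was 0.08 with Mn, -0.39 with MPP+ and -0.41 with 3-NPA.

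Between the toxins, and again over the 9 genes other than Ccnd2, 2 were called for Mn against MPP+, Cdk6 and Cdkn2b, both higher with Mn, where 9.1% of all genes were called, 4.88% higher with Mn and 4.22% lower. The Cdk6 difference was 0.84 ± 0.15 (limma adjusted p = 0.0277). It was not called without Mn replicate 1 (limma adjusted p = 0.0852), MPP+ replicate 1 (0.107) or 2 (0.172) or either 3-NPA array (0.0653 each), nor without a filter on dim probes (0.0699), on the 4 arrays of the pair (0.0827) or on the 6 arrays of the first extraction run (0.0653). For Mn against 3-NPA, 4 were called where 28.6% of all genes were, 11.7% higher with Mn and 16.9% lower: Cdk4, Cdk6 and Cdkn2b were higher with Mn, and Cdkn1c lower. Here the Cdk6 difference was 0.88 ± 0.15 (limma adjusted p = 0.00955), and without 3-NPA replicate 1 or 2 its limma adjusted p was 0.0604 and 0.0515. For MPP+ against 3-NPA, 3 were called where 31% of all genes were, 12.9% higher with MPP+ and 18.1% lower: Ccnd3 and Cdk4 were higher with MPP+, and Cdkn1c lower. That Ccnd3 difference was 0.62 ± 0.18 (limma adjusted p = 0.0413) and was not called without either control array (0.0578 each), without MPP+ replicate 1 (0.185) or 2 (0.104) or without 3-NPA replicate 2 (0.174). It was also lost without a filter on dim probes (limma adjusted p = 0.0836), on the 4 arrays of the pair (0.0604) and with the lowest spot of each probe (0.0797). As the mean of its probes, the Cdkn1c difference between MPP+ and 3-NPA was -0.65 and not called (limma adjusted p = 0.0971). Ccnd3 with Mn was 0.51 ± 0.18 above 3-NPA (limma adjusted p = 0.0785), and scaled by the median 0.73 (limma adjusted p = 0.0238). Cdkn2b with MPP+ was 0.22 ± 0.08 above 3-NPA and not called (limma adjusted p = 0.0839). It was called scaled by the median (0.47, limma adjusted p = 0.0158) and with trend and robust variances (0.22, limma adjusted p = 0.048). Doses were those the labels give for Mn and MPP+, and since 3-NPA has neither dose nor time there, these pairs compare the groups as they were deposited.

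Summed markers of some other cell types also moved between the groups, and their part in these results was not tested. Levels here are summed over a list on a linear scale, in units of the 75th percentile of the array. Of 5 pan-neuronal markers on the array, Map2 and Tubb3 were well above background on all 8 arrays and Snap25 and Stmn2 on 0. Their sum was 1.63 to 1.7 in control, 2.03 to 2.73 with Mn, 2.23 to 2.39 with MPP+ and 4.29 to 4.78 with 3-NPA. For 5 progenitor markers, of which Nes and Vim were well above background on all 8 arrays and 3 on 0, the sum was 11.2 to 12.9 in control, 20.5 to 21.1 with Mn, 15 to 15.6 with MPP+ and 14.8 to 15.4 with 3-NPA. For 6 fibroblast and mesenchymal markers, 1 of them above background on all 8 arrays and 2 on 0, it was 0.773 to 0.864 in control, 1.13 to 1.19 with Mn, 0.361 to 0.409 with MPP+ and 1.45 to 1.47 with 3-NPA. For 6 endothelial markers, 1 on all 8 arrays and 2 on 0, it was 0.252 to 0.291 in control, 0.229 to 0.242 with Mn, 0.215 to 0.231 with MPP+ and 0.474 to 0.488 with 3-NPA. The microglial sum (4 of 6 on all 8 arrays, Ptprc on 0) was 0.398 to 0.537 in control, 0.555 to 0.567 with Mn, 0.321 to 0.387 with MPP+ and 0.691 to 0.718 with 3-NPA. The astrocyte sum overlapped control in every group. It was 0.241 to 0.313 in control, 0.232 to 0.266 with Mn, 0.27 to 0.287 with MPP+ and 0.288 to 0.296 with 3-NPA. Of 6 oligodendrocyte markers 0 were well above background on all 8 arrays. Their sum was 0.0703 to 0.0786 in control, 0.0909 to 0.0925 with Mn, 0.0651 to 0.0755 with MPP+ and 0.115 to 0.116 with 3-NPA.

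The wider pathway was described by 7 lists. Among the other kinase inhibitors, all 5 of which were tested, Cdkn1a (p21) rose and Cdkn2c (p18) fell with each toxin. Cdkn1a read 0.49 and 0.29 in control, 2.52 and 2.27 with Mn, 1.73 and 1.84 with MPP+, and 3.21 and 3.35 with 3-NPA. Every treated array lay above both control arrays. The rise was 4.02-fold with Mn (2.01 ± 0.13), 2.63-fold with MPP+ (1.39 ± 0.13) and 7.43-fold with 3-NPA (2.89 ± 0.13), with limma adjusted p of 0.00206, 0.00313 and 0.000122. A second Cdkn1a probe changed by 0.14, -0.11 and 0.28 and did not pass, so the probes of this gene disagree. On the 4 arrays of control and Mn the limma adjusted p of Cdkn1a was 0.0525.

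Cdkn2c, another INK4 inhibitor, read 1.68 and 1.62 in control, 1.01 and 0.83 with Mn, 0.74 and 0.81 with MPP+, and 0.03 and -0.13 with 3-NPA. All 6 treated arrays lay below control, the 3-NPA arrays lowest. It fell by 0.73 with Mn (limma adjusted p = 0.0157), by 0.88 with MPP+ (limma adjusted p = 0.00627) and by 1.70 with 3-NPA (limma adjusted p = 0.000278) on the log2 scale. The Mn call was lost without control replicate 1 (limma adjusted p = 0.055) or Mn replicate 2 (0.0543) and on the 4 arrays of the pair (0.126), and the MPP+ call without MPP+ replicate 1 (0.0552) or 2 (0.0512). With 3-NPA, Cdkn2a fell by 0.71 (limma adjusted p = 0.00304) and Cdkn2d rose by 0.36 (limma adjusted p = 0.0353). The Cdkn2d call was lost scaled by the median (0.22, limma adjusted p = 0.216), and without either 3-NPA array, either MPP+ array or control replicate 1, where the limma adjusted p ran from 0.0712 to 0.17. The list median was -0.16 with Mn, -0.18 with MPP+ and -0.23 with 3-NPA.

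Among the genes of S phase entry under E2F control, 14 tested, 8 fell and 1 rose with 3-NPA, where 16% of all genes fell and 22.3% rose, and the median was -0.46. Between MPP+ and 3-NPA directly, 3 were higher with MPP+, 1 was lower and 10 were not called, where 12.9% of all genes were higher and 18.1% lower. Tk1, thymidine kinase, fell by 1.07 ± 0.09 (limma adjusted p = 0.000727), and Tyms, thymidylate synthase, fell by 0.92 ± 0.14 (limma adjusted p = 0.004). The 1 gene that rose, named after its value was seen, was Mcm2 of the replicative helicase, by 0.44 ± 0.09 (limma adjusted p = 0.0123), and its other probe changed by 0.26 ± 0.29 and did not pass (limma adjusted p over probes 0.506). Without 3-NPA replicate 1 or 2 the list had 4 and 3 calls. With MPP+ 1 fell, Mcm3, where 6.47% of all genes fell, and the median was -0.34. The other Mcm3 probe changed by -0.42 ± 0.18 (limma adjusted p over probes 0.171). That call (-0.46 ± 0.10, limma adjusted p = 0.0303) was lost scaled by the median (-0.34, limma adjusted p = 0.135), and without either 3-NPA array, either MPP+ array or control replicate 2, where the limma adjusted p ran from 0.069 to 0.163, and the count was 2 without either Mn array. With Mn 0 of 14 were called by their brightest probes, where 7.66% of all genes were, and the median was -0.06, or 0.01 scaled by the median. Rrm2, named after its value was seen, was not called by that probe with Mn or MPP+. Its dimmer probe changed by -0.54 ± 0.08 with Mn (limma adjusted p over probes 0.0195) and by -0.51 ± 0.08 with MPP+ (0.0173). With 3-NPA its probes changed by -0.69 ± 0.13 and -1.35 ± 0.08 (limma adjusted p over probes 0.00924 and 0.000287).

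In the list of cyclin E, CDK2 and CDK-activating genes, with 8 of 9 tested, 0 passed with Mn or MPP+ and 4 fell with 3-NPA, where 7.66%, 13.9% and 38.3% of all genes were called. Ccna2, cyclin A2, fell by 0.94 ± 0.20 (limma adjusted p = 0.0139), and its other probe fell by 0.87 ± 0.09 (limma adjusted p over probes 0.00142). The others were Cdk7 (-0.72 ± 0.15, limma adjusted p = 0.012), Ccne2 (-0.63 ± 0.15, limma adjusted p = 0.0197) and Cdk2 (-0.38 ± 0.11, limma adjusted p = 0.038). The medians were -0.02, -0.17 and -0.23 for Mn, MPP+ and 3-NPA, and that for Mn was 0.05 scaled by the median. Without 1 array the limma adjusted p rose as far as 0.071 for Cdk7 and 0.0686 for Ccna2 (3-NPA replicate 2), and 0.0934 for Ccne2 and 0.187 for Cdk2 (3-NPA replicate 1). Without 3-NPA replicate 1 or 2 the list had 1 call, without either control array 2, and on the 4 arrays of the pair 1. With MPP+ the count was 1 without control replicate 1 and 1 without either Mn array.

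**Figure D4:**
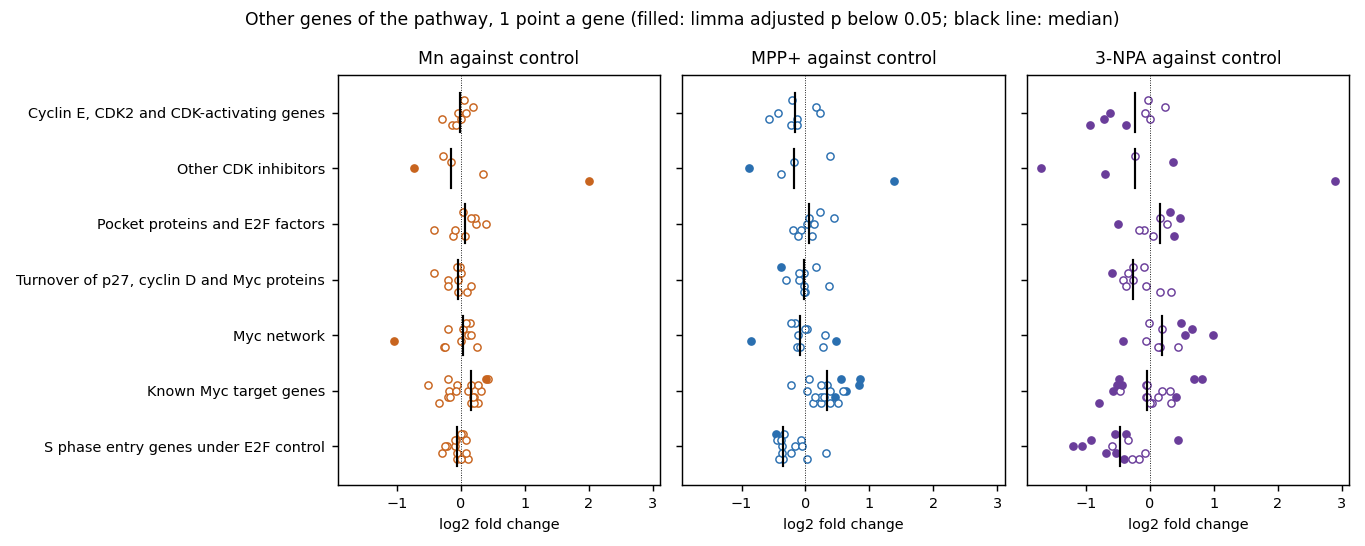
Log2 fold change against control (horizontal axis) of the tested genes of 7 lists for Mn, MPP+ and 3-NPA, with 1 point a gene, filled where the limma adjusted p was below 0.05, and a black line at the median. The S phase entry genes sit at a median of -0.46 with 3-NPA, and the known Myc targets at 0.34 with MPP+.

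Among pocket proteins and E2F factors other than Rb1, 9 of 12 were tested, and 0 passed with Mn or MPP+. Over all genes 7.66% and 13.9% were called with these toxins. With 3-NPA 3 rose and 1 fell, where 22.3% of all genes rose and 16% fell. Tfdp2 (0.47 ± 0.12, limma adjusted p = 0.0273) and E2f8 (0.37 ± 0.09, limma adjusted p = 0.0187) rose and E2f5 (-0.50 ± 0.14, limma adjusted p = 0.0349) fell. The other E2f8 probe changed by 0.09 ± 0.10 (limma adjusted p over probes 0.534), and as the mean of its probes E2f8 changed by 0.23 and was not called (limma adjusted p = 0.0773). The third, E2f7, was not well above background on either control array, so its difference of 0.31 has no measured base there, and normexp background correction turned it to -0.06. The list median with 3-NPA was 0.15, and 0.01 scaled by the median, where 1 gene was called. It had 1 call without any one of the control or MPP+ arrays or 3-NPA replicate 1, and 0 without 3-NPA replicate 2. In the list for turnover of p27, cyclin D and Myc proteins, with 10 of 11 tested, 0 passed with Mn, 1 with MPP+ and 1 with 3-NPA. The shares called over all genes were 7.66%, 13.9% and 38.3%. Skp2, which marks p27 for destruction, fell with MPP+ (-0.38 ± 0.09, limma adjusted p = 0.0367) and Skp1 with 3-NPA (-0.59 ± 0.18, limma adjusted p = 0.042). The Skp2 call was lost without any one of the control, MPP+ or 3-NPA arrays (limma adjusted p 0.0645 to 0.217), and the Skp1 call without any one array other than control replicate 1 (0.0577 to 0.193). Without control replicate 1 the list had 3 calls with 3-NPA.

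Of the Myc network, 11 of 17 listed genes were tested. Over all genes 7.66% were called with Mn, 13.9% with MPP+ and 38.3% with 3-NPA. Mxd4, a Max partner that opposes Myc, fell with each toxin, from 1.85 and 1.88 in control to 0.81 and 0.85 with Mn, 1.01 and 1.03 with MPP+, and 1.47 and 1.43 with 3-NPA. No treated array reached the control arrays, and the Mn arrays were lowest. The falls were -1.04 ± 0.08 (limma adjusted p = 0.00263), -0.85 ± 0.08 (limma adjusted p = 0.00317) and -0.42 ± 0.08 (limma adjusted p = 0.00941), the last lost without 3-NPA replicate 1 (0.0526) or 2 (0.0657) and the first on the 4 arrays of control and Mn (0.0638).

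Mxi1, a further Max partner, read -0.97 and -0.87 in control, -0.59 and -0.92 with Mn, -1.0 and -1.05 with MPP+, and 0.17 and -0.03 with 3-NPA. It rose with 3-NPA by 0.99 ± 0.14 (limma adjusted p = 0.00338), while its other probes changed by 0.60 ± 0.12 (limma adjusted p over probes 0.0119) and, not called, 0.44 ± 0.32 (0.323). Mnt rose by 0.65 ± 0.12 (limma adjusted p = 0.00801). Mlxipl, named for its low signal, is counted next among the genes that rose with 3-NPA. It was not well above background on either control array, so its difference of 0.54 has no measured base there. In all 4 of the 11 rose and 1 fell with 3-NPA, where 22.3% of all genes rose and 16% fell, and without 3-NPA replicate 1 or 2 there were 2 calls, and without either MPP+ array 3. With MPP+ Mlx rose too (0.48 ± 0.10, limma adjusted p = 0.0296), its other probe by 0.42 ± 0.09 (limma adjusted p over probes 0.0338), a call lost without either 3-NPA array, either MPP+ array or control replicate 1 (limma adjusted p 0.0706 to 0.161). With Mn Mxd4 was the 1 gene called, and without control replicate 2 there were 2. The list medians were 0.04, -0.08 and 0.18 for Mn, MPP+ and 3-NPA, and that for MPP+ was 0.03 scaled by the median.

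Known Myc target genes, 19 of 19 tested, had a median of 0.15 with Mn, 0.34 with MPP+ and -0.05 with 3-NPA (0.13 after quantile normalization). With Mn 1 rose and 0 fell, with MPP+ 5 rose and 0 fell, and with 3-NPA 3 rose and 5 fell, beside 7.66%, 13.9% and 38.3% of all genes called in either direction. The count for 3-NPA is near that share of all genes. Odc1, ornithine decarboxylase of polyamine synthesis, read 2.49 and 2.43 in control, 2.84 and 2.87 with Mn, 3.36 and 3.28 with MPP+, and 3.26 and 3.30 with 3-NPA. All treated arrays lay above control. Its rise was 0.40 ± 0.08 with Mn (limma adjusted p = 0.0458), 0.86 ± 0.08 with MPP+ (limma adjusted p = 0.00344) and 0.82 ± 0.08 with 3-NPA (limma adjusted p = 0.00116). The Mn call of Odc1 was lost without any one of the 8 arrays (limma adjusted p 0.0786 to 0.11).

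Srm, spermidine synthase, rose with MPP+ (0.83 ± 0.12, limma adjusted p = 0.012; 0.0759 and 0.0896 without MPP+ replicate 1 or 2) and fell with 3-NPA (-0.44 ± 0.12, limma adjusted p = 0.0359). Its other probe changed by 0.84 ± 0.10 and -0.50 ± 0.10 (limma adjusted p over probes 0.00675 and 0.0128). Bop1, of ribosome assembly, fell with 3-NPA (-0.80 ± 0.14, limma adjusted p = 0.00734). The probes of Nolc1 disagreed. The brighter changed by 0.56 ± 0.10 with MPP+ (limma adjusted p = 0.0224, and 0.0567 to 0.142 without any one MPP+ or 3-NPA array) and by 0.68 ± 0.10 with 3-NPA (limma adjusted p = 0.00455). The dimmer changed by 0.36 ± 0.12 with MPP+ (limma adjusted p over probes 0.107) and by -0.17 ± 0.12 with 3-NPA (0.304), and as the mean of both the 3-NPA change was 0.25 (limma adjusted p = 0.112). The MPP+ count was 1 without MPP+ replicate 1 or 2 and 3 without either 3-NPA array. The 3-NPA count of 8 was 4 without control replicate 1 or 3-NPA replicate 1 and 3 without 3-NPA replicate 2.

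The promoter windows of the members were searched for 6 motifs on both strands, from 250 bases before to 50 after the gene start, in RefSeq sequences of the GRCr8 build. Of the 10 members 5 were matched by symbol: Ccnd3, Cdk4, Cdkn1b, Cdkn2b and Rb1. The Cdk4 window, chr7:64771203-64771502 on the plus strand, is shown because it holds the E-box CACGTG, to which Myc and Max are known to bind, 3 times, starting at -203, -183 and -95. That motif is in 6.42% of the 33469 promoters of this length. The Cdkn2b window, chr5:109134806-109135105 on the minus strand, is shown because Cdkn2b was the gene raised with Mn, and it holds 1 cyclic AMP response element, TGACGTCA, at -96. This motif is in 1.83% of promoters. Capitals mark the motifs.
Cdk4 promoter: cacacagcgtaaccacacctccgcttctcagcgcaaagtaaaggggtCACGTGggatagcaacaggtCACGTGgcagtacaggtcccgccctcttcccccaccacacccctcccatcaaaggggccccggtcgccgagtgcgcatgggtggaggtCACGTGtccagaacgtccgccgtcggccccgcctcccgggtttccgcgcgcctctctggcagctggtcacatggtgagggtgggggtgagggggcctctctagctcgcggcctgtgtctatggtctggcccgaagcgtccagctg
Cdkn2b promoter: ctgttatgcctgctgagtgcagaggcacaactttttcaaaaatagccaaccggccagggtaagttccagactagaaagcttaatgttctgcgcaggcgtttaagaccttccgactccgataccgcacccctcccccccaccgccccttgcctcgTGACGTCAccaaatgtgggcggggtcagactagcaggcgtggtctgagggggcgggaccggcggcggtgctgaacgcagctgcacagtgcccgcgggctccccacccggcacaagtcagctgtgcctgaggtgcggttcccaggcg

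Rb1 held the E2F motif TTTCCCGC once, starting at 2, a motif found in 0.974% of promoters. The E2F motif TTTGGCGC (0.493% of promoters), the ATF4 motif TGATGCAA (0.795%) and the AP-1 motif TGAGTCA (4.63%) were in 0 of the 5 windows. Ccnd3 and Cdkn1b held none of the 6. A match is a description of these letters only.

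The genes whose levels followed a member most closely over the 8 arrays were taken for the 3 members with the widest range of group means among those well above background on all 8, from 8422 candidate genes. For Cdkn1c, whose group means spanned 1.40, they were Lpar1 (Pearson r = 0.988), S100a3 (0.983) and Dock5 (0.978). For Ccnd3, with a span of 1.01, they were Pigo (0.986), Rpain (0.982) and Map2k2 (0.976), and for Cdk4, also with 1.01, Pms2 (0.994), Smarcb1 (0.984) and Dtymk (0.983). Scaled by the median the value for Dock5 was 0.903, and after quantile normalization that for Smarcb1 was 0.877. The 8 points of each correlation share their groups and arrays, and the genes were picked for their likeness, so these values describe the arrays only.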

How the data were processed

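RNA from 8 samples of N27 cells was labelled with Cy3 and hybridised to 1-colour arrays, per the labels' protocols. Per the file headers, Agilent Feature Extraction 11.5.1.1 read the spots, and the processed signal is an intensity after background subtraction that was not normalized between arrays. A table of log2 values that the authors deposited served as an alternative. The tool that made it is not given in the sources used here.

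Outlier spots were left out, log2 signals averaged per probe and the 75th percentile of each array set to 0. Of 30367 probes 39 had every spot marked as an outlier on an array. A probe was well above background where over 0.5 of its spots were so marked, and the 19460 probes so on both arrays of a group were kept. The brightest probe over all arrays stood for its gene. One limma 3.58.1 fit (R 4.3.3) of group means used all 8 arrays, with 4 degrees of freedom from the residuals and 2.06 from the prior, and Benjamini-Hochberg adjustment over 16908 genes, and was tested on simulated data. For 2 arrays against 2 the smallest exact 2-sided permutation p is 0.333, so none was used. The number of arrays limits the precision.

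Named genes were the 10 members with every probe, up to 4 genes per list and comparison by smallest p, and the 3 most alike genes of 3 members. Other kept probes of a named gene are given beside it. Of the list genes so chosen, 1 is not reported here. The members and lists were chosen with earlier results of these data known. Alternatives were normexp (offset 50), quantile normalization, the array median, the deposited table, other filters, the mean over probes, trend and robust variances, fewer arrays, a replicate block and, added after seeing the data, the lowest spot of each probe.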

Additional observations from a re-analysis of the deposited data

How the results depend on the processing

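Of the values of the 10 genes under the alternatives, 1072 kept their direction and their side of the threshold, 44 lost a call, 11 gained one and 31 changed sign. None of those 31 changes had been called. Counts out of the 10 genes here include Ccnd2, which entered the test through the 3-NPA arrays alone. Fitting only the 4 arrays of a pair left 0 of the 10 genes called for Mn against control, 1 for MPP+ against control and 0 for Mn against MPP+, and over all genes 6, 977 and 308. On the 6 arrays without 3-NPA those numbers were 2, 1 and 1 of the 10 and 653, 1285 and 644 over all genes. Without a filter on dim probes 7047, 8834 and 11924 genes were called for Mn, MPP+ and 3-NPA against control, and 580 genes and 1 of the 10 for Mn against MPP+. The mean over probes left 1 of the 10 called for MPP+ against control, and trend and robust variances called 2349 genes for Mn against MPP+. The main counts were 1295, 2357, 6474 and 1538 genes.

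Leaving out each array in turn gave from 2 to 2 of the 10 called for Mn against control, 1 to 2 for MPP+, 2 to 6 for 3-NPA, 0 to 2 for Mn against MPP+, 4 to 5 for Mn against 3-NPA and 3 to 4 for MPP+ against 3-NPA. Over all genes the counts ran from 568 to 1275, 476 to 2383, 3595 to 6708, 208 to 1705, 2135 to 5334 and 2262 to 5766 in the same order. Counts of the 10 again include Ccnd2, which is described above with no test. Without Ccnd2 the main fit called 4 genes for 3-NPA against control, 4 for Mn against 3-NPA and 3 for MPP+ against 3-NPA. The genes and probes stayed those chosen on all 8 arrays, and the array left alone in its group was assumed to vary like the other groups.

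Sign changes by setting were as follows. Normexp gave Ccnd1 -0.08 for Mn against control, Ccnd2 0.09 and Cdk4 0.04 for Mn against MPP+, and E2f7 -0.06 for 3-NPA against control. Quantile normalization gave Ccnd2 0.57 for MPP+ against control and Ccnd1 0.30 for MPP+ against 3-NPA. The deposited table gave Ccnd1 -0.30 for Mn, and the mean over probes Cdkn2b 0.03 for 3-NPA. Scaling by the median gave Rb1 -0.02 and Myc -0.01 for Mn against MPP+, Rb1 0.01 and Myc 0.17 for Mn against 3-NPA, and Ccnd1 0.23, Cdkn1b 0.22, Rb1 0.02 and Myc 0.19 for MPP+ against 3-NPA. The lowest spot gave Ccnd1 0.02 and Cdkn1b 0.04 for MPP+ against 3-NPA. Leaving out 1 array, Ccnd1 ran from -0.43 to 0.44 and Cdk6 from -0.09 to 0.25 for Mn against control. For Mn against MPP+ Ccnd3 ran from -0.27 to 0.04, Cdk4 from -0.14 to 0.12, Rb1 from -0.04 to 0.09 and Myc from -0.16 to 0.21. Myc ran from -0.23 to 0.14 for Mn against 3-NPA, and for MPP+ against 3-NPA Ccnd1 ran from -0.20 to 0.15, Cdk6 from -0.05 to 0.12 and Cdkn1b from -0.15 to 0.08. The cause of these changes was not tested.

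Same-numbered arrays deviated together with a correlation of 0.5 for Mn with 3-NPA and from -0.024 to 0.098 for the other pairs of groups. Same-numbered Mn and 3-NPA arrays share a slide column, as do those of control and MPP+, where the correlation was 0.024. Any part of the columns in this was not tested. The labels state no pairing, so the main fit took none from the numbers. With the replicate block 2, 2 and 5 of the 10 genes, Ccnd2 included, were called for Mn, MPP+ and 3-NPA against control, and 997, 2046 and 6294 of all genes. Between the toxins the block gave 2 of the 10 for Mn against MPP+, 6 for Mn against 3-NPA, where Ccnd3 (0.51) had a limma adjusted p of 0.0305 (0.0785 without the block), and 4 for MPP+ against 3-NPA. In limma it also ended the calls of Odc1 with Mn (0.0737), Skp2 with MPP+ (0.0613), and Cdk2 (0.0501), E2f7 (0.0507) and Mxd1 (0.0648) with 3-NPA. Ccnd1 and Ccnd2 lie near background, which limits what their changes can show.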
